A study of Mus musculus with 7 samples.

Results

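The collagen genes were taken from a single-cell RNA series of mouse malignant peripheral nerve sheath tumors (MPNSTs) as every feature whose symbol had the form Col, a type number, a and a chain number. The rule used names and no measured value, and it found 44 of the 33696 features. Each library held the cells of 1 tumor from JW23.3, a single murine MPNST cell line whose mutations include Nf1, grown from cells implanted in the flank of female C57/B6 mice that were 5 to 6 weeks old. Mice were randomized on day 7, and all tumors were harvested on day 21. Radiation was given to 4 tumors as 2 Gy on each of 5 days (irradiated), and 3 tumors were left untreated (control). All 7 tumors thus shared the line, the implantation, the host strain and sex, and the harvest day, and the hosts kept their own immune cells. Since whole tumors were dissociated, each library mixed tumor cells with host cells. Irradiated 2, 3 and 4 gave 2859 to 3780 cells, irradiated 1 gave 7308 cells, and the controls gave 6134 to 8452 cells.

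Collagens are trimeric proteins of the extracellular matrix. Fibrillar collagens such as types I, III and V form the banded fibers of connective tissue, type IV forms the sheet-like network of basement membranes, type VI forms beaded filaments around cells, and the fibril-associated collagens with interrupted triple helices (FACITs) decorate fibers. Types XV and XVIII, the multiplexins, sit in vascular and other basement membranes, and types XIII, XVII, XXIII and XXV are anchored in the plasma membrane. Cartilage holds its own set, with types II, IX and XI in its fibers and type X in hypertrophic chondrocytes. In peripheral nerve and its tumors, matrix comes from Schwann-lineage cells as well as from fibroblasts and vessel cells.

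Several type IV chains lie head to head on the genome, and these pairs are shown because the levels of their chains are compared across the cell classes below. The windows are from RefSeq (GRCm38.p6) and reach from 250 bases before to 50 bases after each annotated start, written 5′ to 3′ on the strand of the gene. The build behind the count files is given as mm10 in the submitters' processing notes, and no coordinate here was read from the counts. Col4a1 (chr8:11312777-11313076, minus strand) and Col4a2 (chr8:11312555-11312854, plus strand) start 21 bases apart on opposite strands, and the capitals mark the 78 bases that lie in both windows. Col4a5 (chrX:141475169-141475468, plus strand) and Col4a6 (chrX:141474027-141474326, minus strand) start 1343 bases apart, and the capitals mark the GC box (GGGCGG, or CCGCCC on the other strand).
Col4a1: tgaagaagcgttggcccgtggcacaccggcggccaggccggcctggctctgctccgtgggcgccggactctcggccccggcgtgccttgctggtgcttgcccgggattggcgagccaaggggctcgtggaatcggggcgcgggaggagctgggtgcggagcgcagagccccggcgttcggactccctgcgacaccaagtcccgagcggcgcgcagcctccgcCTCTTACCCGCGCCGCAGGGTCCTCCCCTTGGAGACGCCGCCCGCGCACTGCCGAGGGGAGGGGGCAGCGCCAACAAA
Col4a2: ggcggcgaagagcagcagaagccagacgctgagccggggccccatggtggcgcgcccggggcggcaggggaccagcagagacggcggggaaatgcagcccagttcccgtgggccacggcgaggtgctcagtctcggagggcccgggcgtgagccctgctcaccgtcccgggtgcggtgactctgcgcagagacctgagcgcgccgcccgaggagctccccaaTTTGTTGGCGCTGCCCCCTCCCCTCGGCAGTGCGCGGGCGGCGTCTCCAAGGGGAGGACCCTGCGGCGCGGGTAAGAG
Col4a5: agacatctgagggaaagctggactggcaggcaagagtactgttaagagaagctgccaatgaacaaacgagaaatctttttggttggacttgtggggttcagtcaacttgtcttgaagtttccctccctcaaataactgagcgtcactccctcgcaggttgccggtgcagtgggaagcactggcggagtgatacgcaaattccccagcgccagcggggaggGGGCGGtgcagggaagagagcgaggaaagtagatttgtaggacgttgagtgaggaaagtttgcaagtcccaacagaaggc
Col4a6: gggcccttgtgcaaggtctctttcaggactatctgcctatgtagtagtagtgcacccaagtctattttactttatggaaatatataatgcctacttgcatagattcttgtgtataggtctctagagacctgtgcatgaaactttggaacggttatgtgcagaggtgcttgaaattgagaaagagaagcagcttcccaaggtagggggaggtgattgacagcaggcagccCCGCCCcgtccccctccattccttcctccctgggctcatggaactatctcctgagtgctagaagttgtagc
Base composition differed between the pairs, with 74.0% and 73.7% G or C in the windows of Col4a1 and Col4a2 against 52.7% and 48.3% in those of Col4a5 and Col4a6. The median over all RefSeq windows of this length was 52.7%. Windows were available for 35 of the 44 genes (38 windows), and Col1a1, Col2a1, Col4a3, Col5a2, Col9a3, Col12a1, Col14a1, Col22a1 and Col26a1 had none. Searched on both strands, the GC box lay in 23 of the 38 collagen windows and in 35.7% of all windows. The CCAAT box (CCAAT) lay in 13 of 38 and 37.4%, and the TATA box (TATAAA) in 5 of 38 and 13.6%. These matches describe letters and not bound sites.

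In all, 39537 cells gave 646559899 UMIs (unique molecular identifiers, each a distinct captured transcript), of which 9218646 (1.43%) came from collagen genes. Cells were sorted into classes with marker genes among which there was no collagen. This gave 14357 tumor-like cells (863 to 3204 per tumor), 278 fibroblast-like cells (21 to 77), 170 pericyte-like cells (11 to 42), 528 endothelial-like cells (28 to 171), 12339 macrophage-like cells (971 to 2681) and 1137 T/NK-like cells, which make no fibrous matrix and served as the level of free RNA. The remaining 10728 cells (27.1%) stayed unassigned. Median depth per library ran from 13699 to 26395.5 UMIs in tumor-like cells, 8932 to 18745.5 in fibroblast-like, 4530.5 to 13342.5 in pericyte-like, 3509 to 6987 in endothelial-like, 3933 to 11873 in macrophage-like and 2313 to 5707 in T/NK-like cells. Libraries shared at most 0.397% of the barcodes of the smaller one. By cell number, depth, genes per cell, mitochondrial share and stress-gene share the libraries were split into 2 technical sets. Set 1 held control 2, control 3 and irradiated 1, and set 2 held control 1 and irradiated 2, 3 and 4. This was the best of 63 splits, and a share of 0.602 of the variation stayed within the sets. The next split, with irradiated 4 moved to set 1, left 0.637. The sample labels name no batch.

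The classes carried their defining markers with exceptions. Among tumor-like cells, defined by 0 UMIs of the female-host transcript Xist, Sox9 was found in 86.2%, Twist1 in 87.9% and Crabp1 in 89.3%, whereas the Schwann-lineage genes Sox10, Erbb3 and Ngfr were at 0.0557%, 0.216% and 0.0836% of cells. S100b was at 18.3%. Fibroblast-like cells carried Mfap5 in 98.6% and Fbln1 in 92.1%, both core markers of the gate. The core markers Dpep1 and Clec3b were found in only 32.4% and 23.4%. Of the tumor-like list, these cells carried Ncam1 in 78.4%, Twist1 in 67.3%, Sox4 in 60.8% and H19 in 46.4%. Sox9 was found in 36.7% and Crabp1 in 25.9% of them. Of the fibroblast-like list, Dcn, Lum and Pdgfra were also found in 88.1%, 80.0% and 81.5% of tumor-like cells. Rgs5, a core marker of its gate, was found in 92.9% of pericyte-like cells. Pdgfrb was found in 98.2% of them, but also in 83.1% of tumor-like and 89.2% of fibroblast-like cells. Pecam1 and Cdh5 were found in 93.0% and 92.2% of endothelial-like cells, and C1qa in 96.3% of macrophage-like cells.

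Tumor-like cells held most of the collagen UMIs of the suspension, and fibroblast-like cells had the highest collagen content per transcript. Per tumor, 70.4% ± 9.38 (SD, n = 7) of collagen UMIs lay in tumor-like cells and 26.8% ± 10.1 in unassigned cells. The fibroblast-like class held 1.99% ± 0.995, macrophage-like cells 0.389% ± 0.110, endothelial-like cells 0.251% ± 0.126 and pericyte-like cells 0.192% ± 0.0836. These proportions depend on how many cells of each class survived dissociation and describe the suspension. As a share of all UMIs of the class, collagens made up 4.06% ± 0.690 in fibroblast-like, 1.81% ± 0.212 in tumor-like, 1.07% ± 0.0715 in pericyte-like, 0.545% ± 0.0677 in endothelial-like and 0.0360% ± 0.0171 in macrophage-like cells (SD, n = 7 tumors). The ranges of the first 4 classes did not overlap, since the lowest fibroblast-like share was 3.50%, tumor-like shares ran from 1.49% to 2.16%, pericyte-like from 0.966% to 1.14% and endothelial-like from 0.451% to 0.617%. Macrophage-like shares overlapped those of T/NK-like cells, which ran from 0.0104% to 0.0866%.

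**Figure D1:**
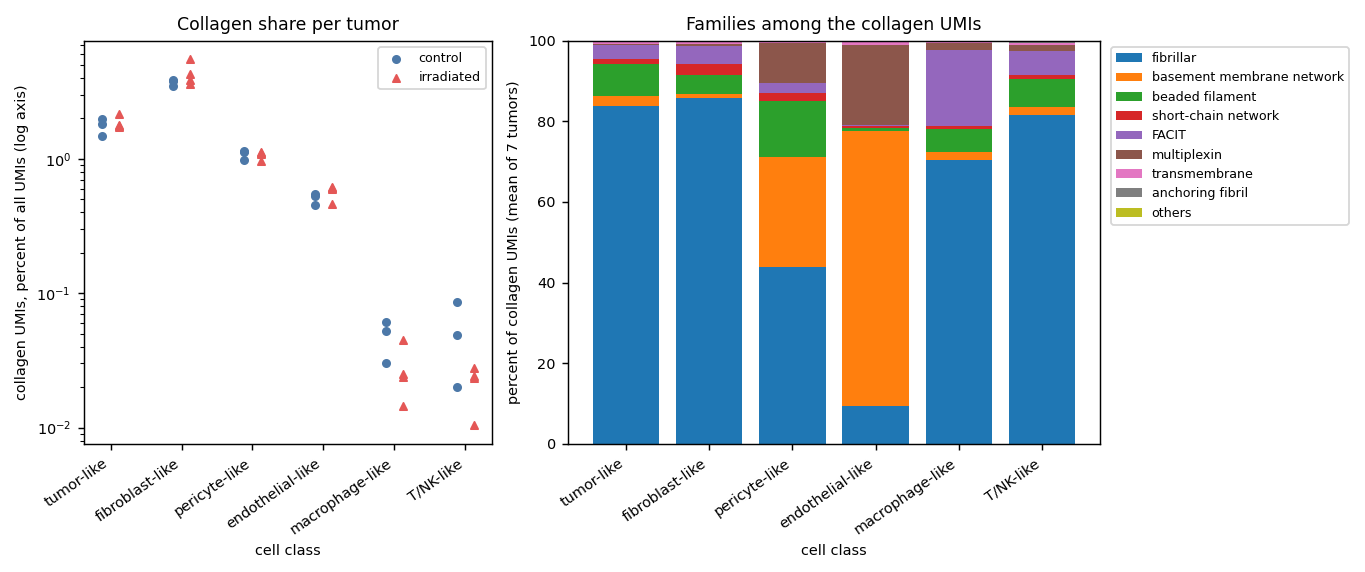
Left, percentage of the UMIs of each cell class that came from the 44 collagen genes, 1 point per tumor and the y axis on a log scale; right, make-up of those collagen UMIs by family, as the mean over 7 tumors. Fibroblast-like cells lie highest (mean 4.06%), macrophage-like and T/NK-like cells lie together near the bottom, and type IV takes 68.2% of the collagen of endothelial-like cells.

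The make-up of that collagen differed by class. Fibrillar chains were 83.7% ± 1.06 of collagen UMIs in tumor-like and 85.9% ± 1.72 in fibroblast-like cells, against 43.9% ± 6.45 in pericyte-like and 9.40% ± 6.12 in endothelial-like cells. The type IV network took 68.2% ± 5.41 in endothelial-like and 27.2% ± 6.72 in pericyte-like cells, but 2.65% ± 0.308 in tumor-like and 0.922% ± 0.282 in fibroblast-like cells. Multiplexins took 16.8% to 23.8% in endothelial-like and 8.11% to 13.5% in pericyte-like cells, against 0.674% ± 0.562 in fibroblast-like and 0.278% ± 0.106 in tumor-like cells. Beaded filament chains reached 13.9% ± 1.09 in pericyte-like cells. In macrophage-like cells the small collagen pool was 70.3% ± 8.10 fibrillar and 18.8% ± 7.35 FACIT.

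Of the 44 genes, 31 reached a mean of 10 CPM (counts-per-million, UMIs scaled to the total of the class in a tumor) in at least 1 class. The highest mean of these 31 was in fibroblast-like cells for 17, in tumor-like cells for 7 (Col2a1, Col4a5, Col4a6, Col7a1, Col9a2, Col11a1 and Col25a1), in endothelial-like cells for 4 (Col4a1, Col4a2, Col13a1 and Col15a1), in pericyte-like cells for 3 (Col5a3, Col6a4 and Col18a1) and in macrophage-like cells for 0. For 20 of the 31, the class with the highest mean was above the other 4 in all 7 libraries. The remaining 13 genes stayed under 10 CPM in all classes (Col4a3, Col4a4, Col6a5, Col6a6, Col9a1, Col9a3, Col10a1, Col11a2, Col17a1, Col19a1, Col20a1, Col22a1 and Col26a1), and 0 members had no UMI in any cell. The assay counts the 3′ ends of transcripts, so CPM is not divided by transcript length.

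**Figure D2:**
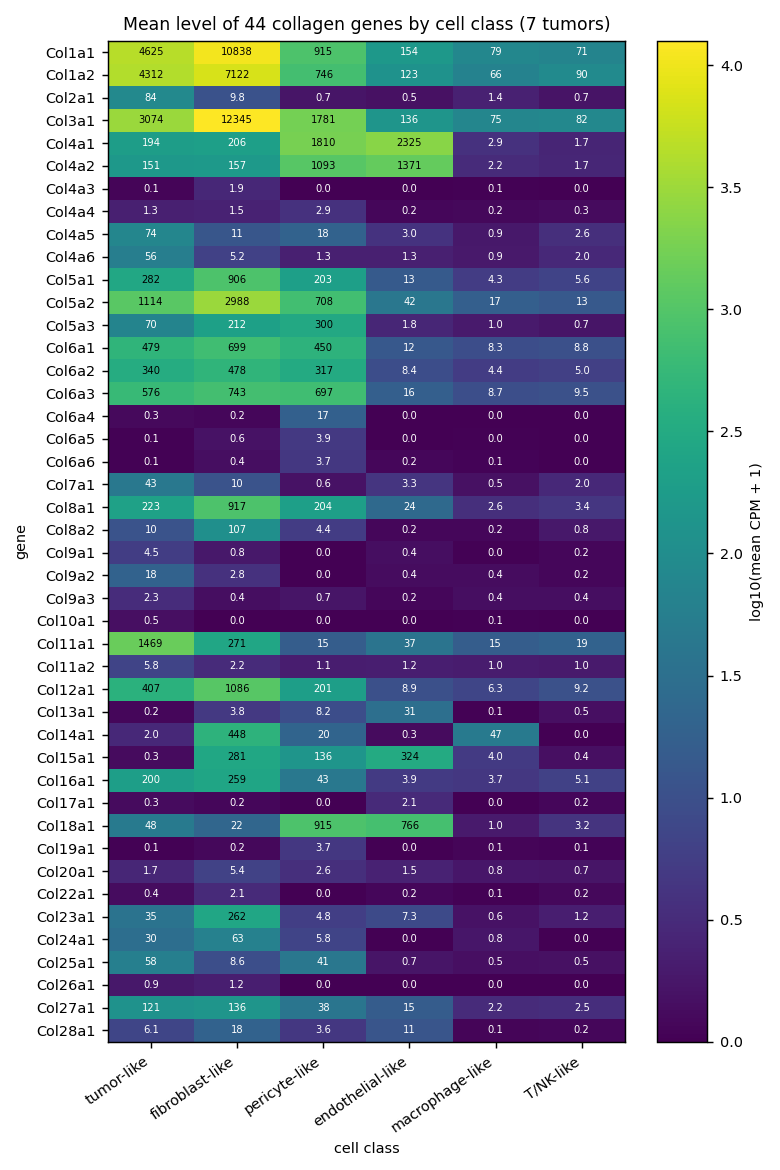
Heat map of the mean CPM over 7 tumors (color on a log scale) of the 44 collagen genes, in rows by type number. Columns are the cell classes and T/NK-like cells. Col1a1, Col1a2 and Col3a1 are high in both tumor-like and fibroblast-like cells, and Col4a1, Col4a2 and Col18a1 in pericyte-like and endothelial-like cells. Col4a5 and Col4a6 are highest in tumor-like cells (74.1 and 55.9 CPM). The macrophage-like column is low throughout, with Col1a1 highest at 79.2 CPM and Col14a1 at 47.4 CPM.

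The 3 collagens with the highest levels in tumor-like cells were Col1a1, Col1a2 and Col3a1, the chains of type I and type III fibers. In controls 1 to 3, Col1a1 stood at 5129, 4498 and 3707 CPM, and in irradiated tumors 1 to 4 at 3901, 6532, 4277 and 4329 CPM. In fibroblast-like cells the same gene stood at 8454, 10047 and 10480 CPM in controls and at 8506, 11652, 10369 and 16361 CPM in irradiated tumors. Each fibroblast-like value lay above each tumor-like value. Col3a1 was at 2276 to 3609 CPM in tumor-like and at 10662 to 16623 CPM in fibroblast-like cells, again with no overlap, and Col1a2 averaged 4312 ± 434 and 7122 ± 842 CPM (SD, n = 7).

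Tumor-like and fibroblast-like cells carried the same fiber chains in different proportions. The ratio of Col3a1 to Col1a1 UMIs was 0.680 ± 0.118 in tumor-like cells (0.455 to 0.833), 1.16 ± 0.105 in fibroblast-like cells (1.02 to 1.33) and 2.09 ± 0.710 in pericyte-like cells (SD, n = 7). The ratio of Col1a1 to Col1a2, the 2 chains of type I, was 1.07 ± 0.145 in tumor-like and 1.52 ± 0.286 in fibroblast-like cells. Col11a1, a chain that seeds fibers in cartilage and other tissues, was 5.43 ± 1.70 times Col5a1 in tumor-like cells and 0.353 ± 0.349 times Col5a1 in fibroblast-like cells. Col5a1 and Col11a1 belong to the type V and XI group of fiber nucleators.

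Between fibroblast-like and tumor-like cells, 24 of the 30 collagens tested passed an adjusted p of 0.05 (edgeR's quasi-likelihood test with tumor as a block and Benjamini-Hochberg adjustment), against 54.2% of all 11365 genes. In fibroblast-like cells 16 were higher (27.0% of all genes) and 8 lower (27.2%), and the median log2 fold change of the 30 was 0.68 against -0.02 over all genes. DESeq2 called 25 (56.3% of all genes). The largest increases were in Col15a1 (log2 fold change 9.57 ± 0.60, SE, adjusted p 1.44e-13 by edgeR), a multiplexin of basement membrane zones, and Col14a1 (7.89 ± 0.43, adjusted p 5.61e-15), a FACIT of dense connective tissue. Col14a1 was at 440.1, 430, 551, 549.8, 452, 489 and 223 CPM in fibroblast-like cells of controls 1 to 3 and irradiated tumors 1 to 4. It was at 0.343 to 3.96 CPM in tumor-like cells, so each fibroblast-like value lay above each tumor-like value.

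Other fibroblast-like increases were in Col13a1 (4.47 ± 0.89), a membrane collagen at only 3.83 CPM there, Col8a2 (3.51 ± 0.20), a short-chain network collagen at 107 CPM, and Col23a1 (2.94 ± 0.30), a membrane collagen at 262 CPM. Col8a1, the partner of Col8a2 in type VIII trimers, rose by 2.04 ± 0.27 and Col3a1 by 2.11 ± 0.32. All 3 type V chains were higher, with log2 fold changes of 1.72 for Col5a1, 1.48 for Col5a2 and 1.49 for Col5a3. Col1a1 was higher by 1.32 ± 0.36 (adjusted p 0.00258, edgeR). Its partner Col1a2 gave 0.78 ± 0.36 and an adjusted p of 0.0671 in edgeR, and so did not pass.

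The 8 genes that were lower in fibroblast-like than in tumor-like cells were Col4a6 (log2 fold change -3.41 ± 0.39), Col2a1 (-3.16 ± 0.40), Col25a1 (-2.82 ± 0.45), Col11a1 (-2.71 ± 0.50), Col4a5 (-2.60 ± 0.28), Col9a2 (-2.47 ± 0.41), Col7a1 (-2.13 ± 0.34) and Col18a1 (-1.07 ± 0.35). Col4a5 and Col4a6, chains of the type IV network whose paired starts are printed above, were at 60.4 to 89.6 and 39.6 to 70.4 CPM in tumor-like cells. Their ratio there was 1.36 ± 0.190, while in pericyte-like cells it was 7 and 8 in the 2 libraries with a Col4a6 UMI. The pericyte-like class held only 2 Col4a6 UMIs in all, so these ratios are loose. Over the other classes Col4a5 averaged 0.863 to 18.4 CPM and Col4a6 0.927 to 5.17 CPM. Col4a1 and Col4a2, the chains of the ubiquitous type IV trimer, gave log2 fold changes of 0.11 ± 0.27 and 0.11 ± 0.22 and did not pass (adjusted p 0.749 and 0.704, edgeR). Col7a1 is the anchoring fibril chain of skin, and Col25a1 is a membrane collagen described in brain and muscle. Without irradiated 2 the change of Col25a1 was -4.66 (adjusted p 5.35e-10, edgeR).

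Col11a1 and the tumor-like markers Crabp1, Sox9 and H19 varied between tumors in fibroblast-like cells. In the fibroblast-like class Col11a1 was at 252, 626 and 121 CPM in controls 1 to 3 and at 604, 184, 98.9 and 8.46 CPM in irradiated tumors 1 to 4. Crabp1, a tumor-like marker, was at 157, 442, 210, 227, 50.7, 20.4 and 42.3 CPM in the same order. Sox9 was at 104, 114, 85.3, 112, 58.8, 78.5 and 8.46 CPM, and H19 at 339, 441, 384, 319, 223, 43.6 and 101 CPM. All 4 irradiated H19 values lay below the controls (4.82% of all genes had no overlap). Control 2 and irradiated 1 were high in Col11a1, and irradiated 4 was low in Col11a1 and Sox9. The order was not the same throughout, since control 3 had more Crabp1 than control 1 but less Col11a1. Likewise irradiated 4 had more Crabp1 than irradiated 3 but less Col11a1. The part of tumor RNA or of mixed droplets in the Col11a1 level was not tested.

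Pericyte-like cells, the mural cells of small vessels, had the type IV network and Col18a1 among their most abundant collagens. Compared with fibroblast-like cells, 24 of 30 collagens passed (35.6% of all genes), 5 higher (16.6%) and 19 lower (19%), with a median log2 fold change of -2.25 against -0.05 over all genes. DESeq2 called 21 (35.8% of all genes). Col18a1, the precursor of endostatin, was at 1131, 895 and 626 CPM in pericyte-like cells of controls and at 719, 874, 895 and 1265 CPM in irradiated tumors. It was at 8.73 to 62.8 CPM in fibroblast-like cells, so the classes did not overlap (5.25 ± 0.35, adjusted p 4.85e-13, edgeR). Col4a1 rose by 3.07 ± 0.29 and Col4a2 by 2.71 ± 0.23, the other increases being Col25a1 (2.15 ± 0.62) and Col5a3 (0.65 ± 0.25).

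Of the 10 fibrillar chains tested, 9 were lower in pericyte-like than in fibroblast-like cells and Col5a3 was higher, and both network chains of type VIII were lower. The log2 fold change was -3.69 ± 0.40 for Col1a1, -3.30 ± 0.39 for Col1a2, -2.88 ± 0.33 for Col3a1, -5.85 ± 0.64 for Col23a1, -4.62 ± 0.43 for Col8a2 and -4.41 ± 0.52 for Col14a1. Of the main chains of type VI, the beaded filament collagen, Col6a1 was lower (-0.71 ± 0.23, adjusted p 0.0141, edgeR), while Col6a2 (-0.64 ± 0.27, adjusted p 0.0681, edgeR) and Col6a3 (-0.17 ± 0.22, adjusted p 0.595, edgeR) did not pass. Col9a2, a FACIT chain of cartilage, had 0 UMIs in pericyte-like cells. Set against a floor of 3 UMIs over the class it was at least 2.07-fold lower than in fibroblast-like cells, and its call was lost in 7 alternative settings, among them the removal of control 1, control 2, irradiated 1, irradiated 3 or irradiated 4 (adjusted p 0.0534 to 0.209, edgeR). Col6a4 had its highest level in pericyte-like cells, at a mean of 16.9 CPM (20 UMIs), with 1 UMI in fibroblast-like and 0 in endothelial-like cells. The far more numerous tumor-like cells held 79.3% of its 111 UMIs over the 5 classes, at a mean of 0.263 CPM. The ratio of Col6a4 in pericyte-like to fibroblast-like cells was 51.7 with a 95% exact counting interval of 8.26 to 2141.

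Endothelial-like cells carried type IV and the multiplexins and few other collagens. Their Col4a1 stood at 1914, 2189 and 2155 CPM in controls and at 2581, 2145, 2731 and 2557 CPM in irradiated tumors, and Col4a2 at 1219 to 1603 CPM. Pericyte-like cells had Col4a1 at 1272 to 2814 CPM, which covered the endothelial range from 1914 to 2731. The ratio of Col4a1 to Col4a2 was 1.29 ± 0.0715 in tumor-like, 1.24 ± 0.209 in fibroblast-like, 1.64 ± 0.269 in pericyte-like and 1.70 ± 0.124 in endothelial-like cells (SD, n = 7), while the level of Col4a1 spanned 194 to 2325 CPM over these classes.

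Against pericyte-like cells, 19 of 30 collagens passed in endothelial-like cells (37.4% of all genes), 2 higher (18.3%) and 17 lower (19.1%), and DESeq2 called 20 (38.3%). The median log2 fold change of the 30 was -2.79 against 0.03 over all genes. Col4a1 (0.36 ± 0.26), Col4a2 (0.32 ± 0.21) and Col18a1 (-0.27 ± 0.27) did not pass (adjusted p 0.308, 0.250 and 0.477, edgeR). Col5a3 gave -7.39 ± 0.46, and the 3 main type VI chains gave -5.27 ± 0.32 for Col6a1, -5.56 ± 0.42 for Col6a2 and -5.54 ± 0.30 for Col6a3. Col5a3 was at 182 to 386 CPM in pericyte-like and at 0 to 2.80 CPM in endothelial-like cells. The 2 increases were Col15a1 (1.25 ± 0.48, adjusted p 0.0407, edgeR) and Col13a1 (2.21 ± 0.79, adjusted p 0.0266, edgeR), whose calls were lost in 6 and 4 alternative settings. Col13a1 in endothelial-like cells ran from 0 CPM in irradiated 2 to 95.1 CPM in irradiated 3, and without irradiated 3 its change was 1.38 (adjusted p 0.176, edgeR). Its call was also lost without control 1 (2.09, adjusted p 0.0637, edgeR) or control 3 (1.96, adjusted p 0.0873, edgeR). The call of Col15a1 was lost when control 1, irradiated 1, irradiated 2 or irradiated 3 was left out, with changes of 1.05 to 1.40 (adjusted p 0.0598 to 0.139, edgeR).

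Some low-count genes could only be bounded. Col6a4 and Col24a1 had 0 UMIs in endothelial-like cells, where they were at least 16.9-fold and 7.60-fold lower than in pericyte-like cells. Col14a1 had 1 UMI in endothelial-like against 34 in pericyte-like cells, a ratio of 86.1 with a 95% counting interval of 14.4 to 3499. The 34 UMIs came from 3 irradiated tumors, where Col14a1 was at 5.03, 93.3 and 42.0 CPM in irradiated 1, 2 and 3 and at 0 in the other 4 libraries. Fbln1, a fibroblast-like marker, was at 54.0 and 78.1 CPM in pericyte-like cells of irradiated 2 and 3 and at 4.13 to 15.1 CPM elsewhere, and its part in Col14a1 there was not tested.

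**Figure D3:**
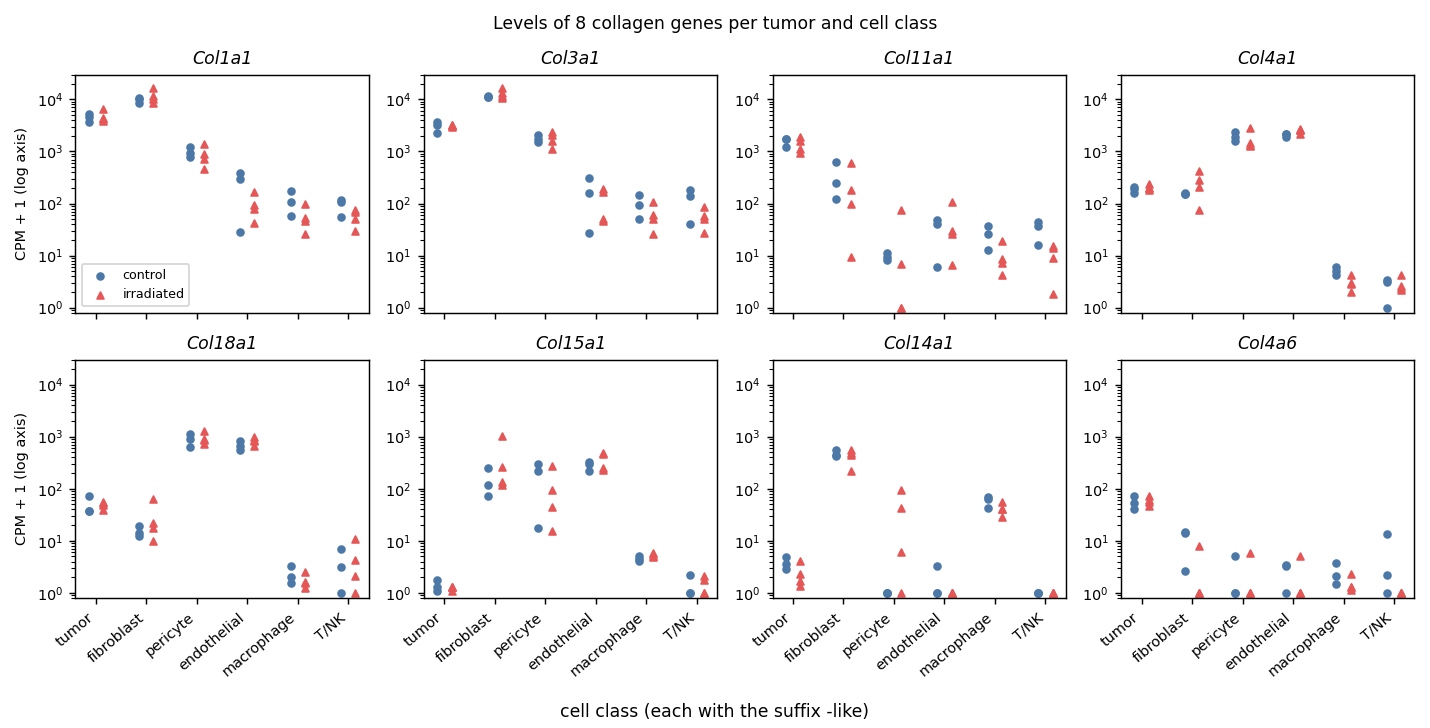
CPM of 8 collagen genes in each tumor and cell class, 1 point per tumor and the y axis on a log scale, with controls and irradiated tumors in different colors. Controls and irradiated tumors interleave within classes. Some classes stand apart, as in Col18a1 at 626 to 1265 CPM in pericyte-like and 8.73 to 62.8 CPM in fibroblast-like cells. Others overlap, as pericyte-like and endothelial-like cells do in Col4a1, and macrophage-like and T/NK-like cells in Col1a1 and Col3a1.

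A cartilage-type collagen set was found in a small part of the tumor-like cells. Col2a1, the fiber chain of cartilage, was at 66.1, 116 and 99.5 CPM in tumor-like cells of controls 1 to 3 and at 133, 160.5, 10.3 and 1.85 CPM in irradiated tumors 1 to 4. Irradiated 1 and 2 lay above all controls and irradiated 3 and 4 below all of them, so the group means of 93.8 ± 25.3 and 76.5 ± 82.1 CPM (SD) hid a wide spread. Cells with at least 5 Col2a1 UMIs were 5.49%, 7.68% and 8.01% of tumor-like cells in the controls and 8.24%, 10.9%, 1.35% and 0.348% in the irradiated tumors. These cells held 60.5% to 95.9% of all Col2a1 UMIs of the class. Their median depth was above that of the other tumor-like cells in all libraries but irradiated 4, for example 24100 against 21112 UMIs in control 3.

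In the 5 tumors with at least 20 such cells, the type IX and type XI chains and Col27a1 were higher in them in every tumor. The Col2a1 level itself was used to choose the cells, and the values below are a description. Col11a1 had a median of 4864 CPM in Col2a1-rich cells and 1475 CPM in the other tumor-like cells over the 5 tumors. Its partners Col11a2 and Col2a1 belong to the same cartilage fibers, and Col11a2 was at 60.5 against 0.953 CPM. The type IX chains, FACITs of the cartilage fiber surface, were at 42.5 against 1.06 CPM for Col9a1, 144 against 10.2 CPM for Col9a2 and 8.73 against 1.62 CPM for Col9a3. Col27a1, a fibrillar chain of growth cartilage, was at 182 against 110 CPM. Col10a1, the hypertrophic cartilage chain, had 46 UMIs in these cells and was higher in 4 of 5 tumors, at 1.70 against 0.421 CPM.

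Genes of cartilage matrix and of its transcription factors were also higher in the Col2a1-rich cells in 5 of 5 tumors. Acan, the main cartilage proteoglycan, was at 78.4 against 8.03 CPM, Hapln1, its link protein, at 132 against 7.29 CPM, and Cnmd, which encodes chondromodulin, at 174 against 2.86 CPM. The chondrocyte transcription factors Sox5, Sox6 and Sox9 were at 673 against 324, 43.9 against 3.14 and 492 against 217 CPM. Sox5 and Sox6 were not particular to these cells, with means of 1681 and 147 CPM in pericyte-like cells. Acan averaged 39.5 CPM in fibroblast-like cells (213 CPM in irradiated 2) and 14.1 CPM over all tumor-like cells. Sox9, Hapln1 and Cnmd had their highest class means in tumor-like cells. Matn1, a matrilin of mature cartilage, stayed near 0, with 24 UMIs in Col2a1-rich and 2 in the other cells. Col1a1 and Col3a1 were higher in these cells too, at 6409 against 4403 and 4179 against 3079 CPM.

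**Figure D4:**
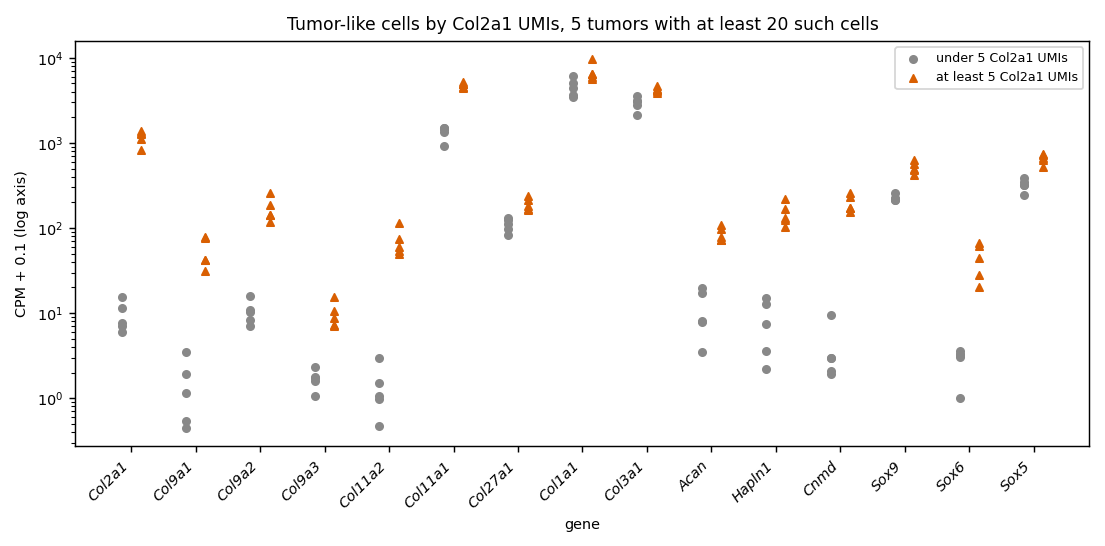
Collagen and cartilage genes in tumor-like cells with at least 5 Col2a1 UMIs and in the other tumor-like cells, as CPM on a log axis, 1 point per tumor for the 5 tumors with at least 20 such cells. The cells were chosen by Col2a1, and Col9a1, Col9a2, Col11a1, Col11a2 and Acan are higher in them in each of the 5 tumors.

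Macrophage-like cells held collagen transcripts at about the level of T/NK-like cells, with Col14a1 as the clearest exception. Against tumor-like cells 29 of 30 collagens passed (80.3% of all genes), 27 lower (40.9%) and 2 higher (39.3%), and DESeq2 also called 29 (81.8%). The median log2 fold change of the 30 was -5.61 against -0.02 over all genes, with the most negative values in Col11a1 (-6.44 ± 0.58), Col25a1 (-6.44 ± 0.38) and Col8a1 (-6.13 ± 0.34). Over the 26 collagens that reached 10 CPM in tumor-like cells, the macrophage-like level was a median of 1.53% of the tumor-like level (0.867% to 2.62%). In T/NK-like cells it was a median of 1.75% (0% to 8.08%). The 2 highest macrophage-like collagens, Col1a1 and Col3a1, averaged 79.2 ± 49.6 and 75.2 ± 41.2 CPM, against 70.8 ± 31.5 and 82.4 ± 58.1 CPM in T/NK-like cells (SD, n = 7).

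Col14a1 was at 42.5, 68.0 and 61.4 CPM in macrophage-like cells of controls 1 to 3 and at 38.9, 27.3, 54.3 and 39.5 CPM in irradiated tumors 1 to 4. It was above the tumor-like and T/NK-like levels of the same library in 7 of 7 tumors, and the change from tumor-like cells was 5.03 ± 0.38 (adjusted p 1.12e-12, edgeR). T/NK-like cells had a Col14a1 UMI in 0 of 1137 cells, which allows a share of cells with a UMI of up to 0.264% at their depth. The share of cells with a UMI in macrophage-like cells was 20.5% (15.1% to 27.8% per library), and 11.1% (6.27% to 14.3%) once each cell was thinned to 3000 UMIs, which left 9631 cells. Thinned tumor-like cells had it in 0.809%. The ratio of Col14a1 to Col3a1 UMIs had a median of 0.735 in macrophage-like cells (0.293 to 1.56) and 0.0390 in fibroblast-like cells (0.0134 to 0.0516), with no overlap between the classes.

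Among the thinned macrophage-like cells, those with a Col14a1 UMI (1069 cells) carried fibrous collagens about as often as the others. Col1a1 was found in 12.6% and 12.8% of them and Col3a1 in 13.5% and 14.7%. The median level was 87.5 against 48.5 CPM for Col1a1 and 79.9 against 55.4 CPM for Col3a1. It was higher in cells with Col14a1 in 4 of 7 libraries for Col1a1 and in 2 of 7 for Col3a1. Fibroblast markers were scarce in both, with Mfap5 in 0.187% and 0.199% and Dcn in 1.68% and 1.93%. Fbln1 was found in 0.281% (3 UMIs) against 0.0234% and Clec3b in 0.0935% (1 UMI) against 0.0117%. The complement gene C1qc was higher in cells with Col14a1 in 7 of 7 libraries, at a median of 3302 against 3089 CPM, while its partner chains C1qa and C1qb were higher in 4 of 7 each. Ly6c2, a monocyte gene, was lower in 7 of 7 libraries, at 8.66 against 59.9 CPM. The antigen presentation gene H2-Ab1 was at 275 against 559 CPM and the collagen-degrading protease gene Ctsk at 2.92 against 37.9 CPM, both also lower in 7 of 7. Ctsk was nevertheless found in a like share of the cells, 1.5% and 1.62%. Since the cells were chosen by Col14a1, these values are a description.

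Col15a1 was the other collagen above the tumor-like level in macrophage-like cells (4.08 ± 0.55, adjusted p 1.17e-07, edgeR). Its level was low and even, at 3.18, 3.40 and 4.14 CPM in controls and 4.52, 4.80, 4.03 and 3.82 CPM in irradiated tumors, with 3 UMIs in all T/NK-like cells. A UMI was found in 2.89% of macrophage-like cells, 0.264% of T/NK-like cells and 57.8% of endothelial-like cells.

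Between irradiated and control tumors, 0 collagens passed in any class by edgeR. Tested members were 40 in tumor-like, 21 in fibroblast-like, 15 in pericyte-like, 10 in endothelial-like and 23 in macrophage-like cells, and the share of all tested genes that passed was 0.0% in each class. At an unadjusted p under 0.05 there were 2, 1, 0, 0 and 3 members in the same order, beside 1.34%, 3.11%, 2.31%, 3.71% and 5.21% of all genes. DESeq2 called 1 member, Col28a1 in tumor-like cells, and 0 in the other 4 classes, beside 0.0116%, 0.014%, 0.0%, 0.0% and 0.0155% of all genes (2, 1, 0, 0 and 2 genes). With every gene that had at least 1 UMI in the fit, edgeR called 1 member in pericyte-like (Col14a1, 0.0824% of all genes) and 1 in endothelial-like cells (Col8a1, 0.352%). Group values without overlap were found for 3 members in tumor-like cells (2.35% of all genes) and for 0 in fibroblast-like (4.82%), pericyte-like (5.22%), endothelial-like (4.61%) and macrophage-like cells (5.22%).

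**Figure D5:**
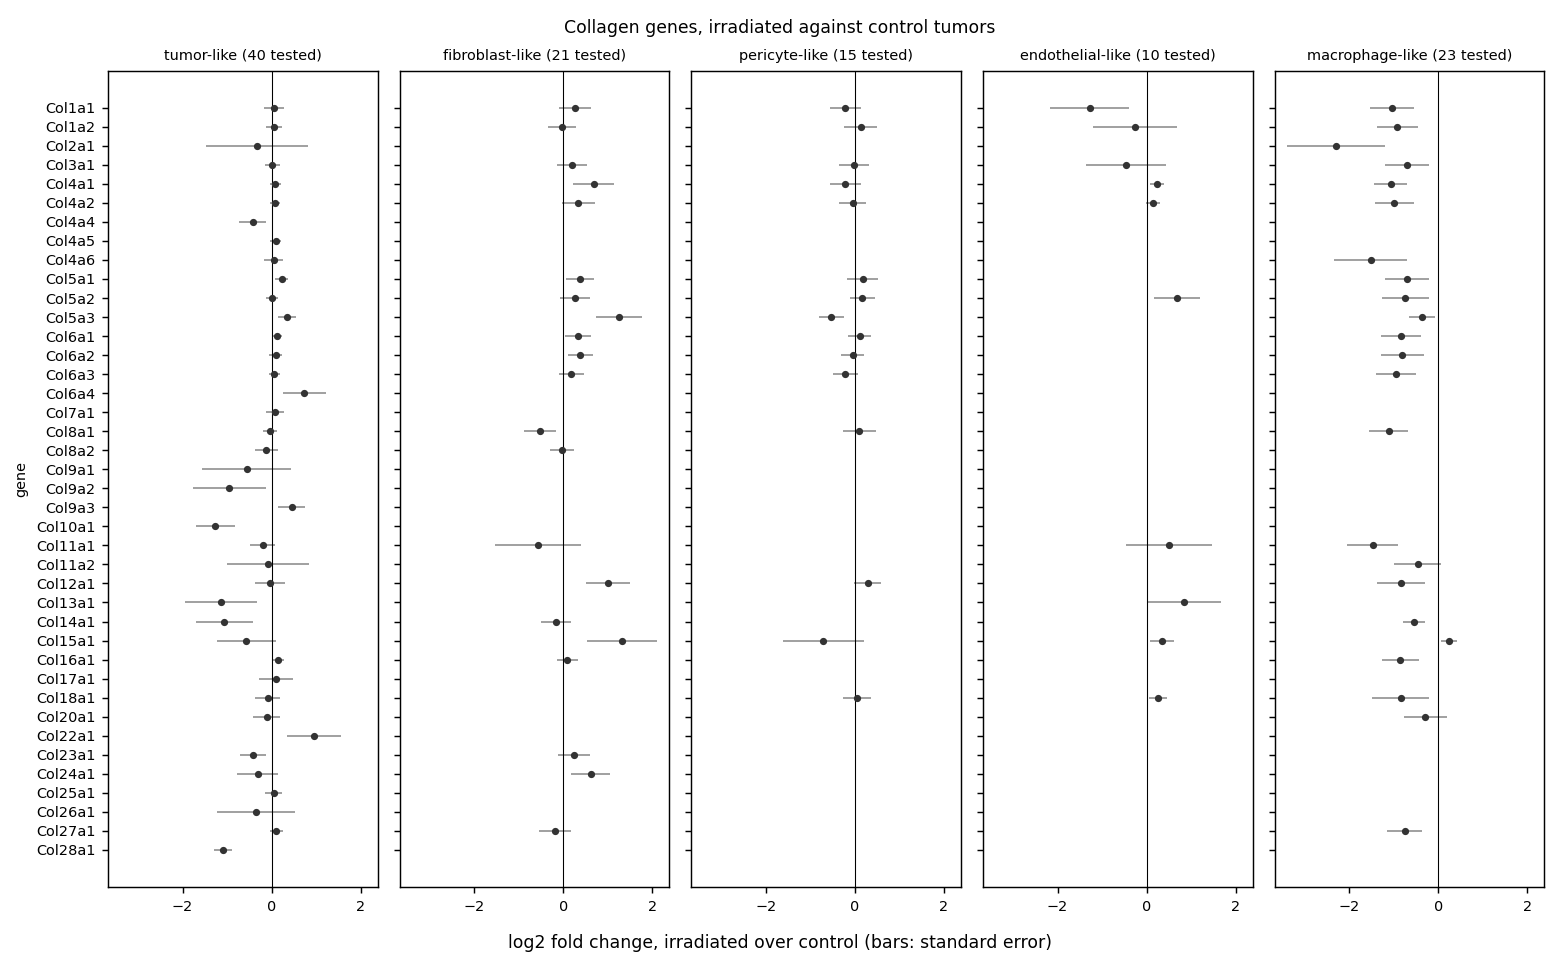
Log2 fold change of irradiated over control tumors with its standard error (edgeR) for the collagen genes tested in each cell class. In tumor-like and pericyte-like cells 21 of 40 and 7 of 15 genes lie above 0. In fibroblast-like cells 15 of 21 lie above 0 (51.6% of all genes), and in endothelial-like cells 7 of 10 (50.8%). In macrophage-like cells 22 of 23 genes lie below 0, and 0 passed the adjusted threshold in any class.

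The collagen share of UMIs was 1.76% ± 0.255 in control and 1.85% ± 0.206 in irradiated tumor-like cells (SD, n = 3 and 4), and 3.73% ± 0.207 and 4.31% ± 0.856 in fibroblast-like cells. Pericyte-like cells had 1.08% ± 0.0894 and 1.07% ± 0.0694, and endothelial-like cells 0.510% ± 0.0520 and 0.571% ± 0.0722. Every irradiated range overlapped the control range. Within technical sets 1 and 2 the difference in percentage points was -0.266 and 1.05 in fibroblast-like, 0.0732 and -0.0977 in tumor-like and -0.00664 and 0.0716 in pericyte-like cells, so it changed sign in these 3 classes. In endothelial-like cells it was 0.107 and 0.0119. Irradiated 1 is the only irradiated tumor of set 1 and control 1 the only control of set 2, so each difference leans on a single tumor.

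In tumor-like cells the 3 genes without overlap were Col6a1, Col28a1 and Col10a1, which were singled out after their values were seen. Col28a1, a minor collagen of peripheral nerve, was at 7.58, 9.90 and 8.39 CPM in controls and at 4.19, 4.97, 4.43 and 3.22 CPM in irradiated tumors. All 4 irradiated values lay below all 3 controls. The log2 fold change was -1.09 ± 0.21 with an adjusted p of 0.999 in edgeR, against -1.10 with an adjusted p of 0.0114 in DESeq2. Col10a1 was at 0.662 to 0.789 CPM in controls and 0.157 to 0.545 CPM in irradiated tumors, and Col6a1 at 422 to 478 and 484 to 528 CPM. Among members above 10 CPM, the most negative values were Col9a2 (-0.95 ± 0.82) and Col23a1 (-0.42 ± 0.29), and the most positive were Col5a3 (0.34 ± 0.21) and Col5a1 (0.22 ± 0.15). Col9a2 stood at 15.3, 29.0 and 30.8 CPM in controls and at 22.7, 24.1, 5.42 and 1.16 CPM in irradiated tumors, low in the same 2 tumors as Col2a1.

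In fibroblast-like cells the estimates leaned on irradiated 4. Col15a1 was at 72.9, 249.6 and 117 CPM in controls and at 259, 136, 119 and 1012 CPM in irradiated tumors (1.32 ± 0.78), and Col5a3 at 140.1, 86.2 and 126 against 121, 178, 218 and 617 CPM (1.25 ± 0.52, adjusted p 0.923, edgeR). Irradiated 4 was the highest tumor for both genes, and the groups overlapped. Without irradiated 4 Col15a1 gave 0.20 and Col5a3 0.54. Col11a1 (-0.56 ± 0.97) and Col8a1 (-0.51 ± 0.36) had the most negative values, and Col11a1 turned to 0.30 without control 2.

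In the vessel classes the groups overlapped for each member tested. In pericyte-like cells Col15a1 (-0.71 ± 0.90) ran from 14.7 to 293 CPM over the 7 tumors, and Col5a3 (-0.53 ± 0.29) from 182 to 386 CPM. Col12a1 gave 0.28 ± 0.31 and Col5a1 0.17 ± 0.35. In endothelial-like cells Col1a1 was at 378, 291 and 27.3 CPM in controls and at 90.9, 79.0, 42.0 and 167 CPM in irradiated tumors (-1.28 ± 0.89), with control 3 below all irradiated tumors. Col3a1 gave -0.47 ± 0.90, Col13a1 0.84 ± 0.82 and Col5a2 0.68 ± 0.52. The adjusted p was 0.998 or more for these 8 estimates in edgeR.

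In macrophage-like cells 22 of the 23 members tested had a negative log2 fold change, and 0 passed the test. The values had a median of -0.85, while 49.1% of all genes tested were positive and their median was 0.00. Col11a1 gave -1.47 ± 0.58 and Col1a1 -1.04 ± 0.50 (adjusted p 0.824 each, edgeR). Col1a1 stood at 107, 170.3 and 57.0 CPM in controls and at 98.0, 51.7, 45.7 and 24.8 CPM in irradiated tumors. T/NK-like cells, which gave the level of free RNA, had a lower irradiated than control mean for 17 of the 23 members (22 had a UMI there), with Col1a1 at 118, 106 and 55.0 CPM in controls and 48.5, 72.6, 67.0 and 29.0 CPM in irradiated tumors. Within technical set 1 the macrophage-like Col1a1 difference was -0.01 on the log2 scale, and within set 2 it was -1.43. The part of free RNA and of technical set in this difference was not tested.

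The list of collagen handling genes comprised 48 enzymes, proteases and receptors, of which 46 were tested between classes. In fibroblast-like against tumor-like cells 24 were higher (27.0% of all genes) and 7 lower (27.2%), with the largest increases in Colgalt2 (5.26 ± 0.71), a collagen galactosyltransferase, Tll1 (4.19 ± 0.62), a procollagen C-proteinase, and Adamts2 (3.03 ± 0.24), a procollagen N-proteinase. The gelatinase Mmp9 was lower (-3.88 ± 0.74). Pericyte-like cells had 4 higher (16.6%) and 26 lower (19%) than fibroblast-like cells, with Itga1, a collagen receptor subunit, at 3.73 ± 0.24 and the collagenase Mmp13 at -7.92 ± 1.05. Endothelial-like cells had 4 higher (18.3%) and 25 lower (19.1%) than pericyte-like cells, with the collagen receptor subunit Itga2 at 4.66 ± 0.64 and the receptor Ddr2 at -6.50 ± 0.39.

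In macrophage-like cells, 39 of the handling genes were lower (40.9% of all genes) and 2 higher (39.3%) than in tumor-like cells. The 2 higher genes were Lair1 (9.50 ± 0.18), an inhibitory collagen receptor of leukocytes, and Mrc1 (9.78 ± 0.28), an endocytic receptor that was also one of the markers of the macrophage gate. Between irradiated and control tumors 0 handling genes passed in any class by edgeR (0.0% of all genes). Tested were 46, 37, 27, 22 and 36 in tumor-like, fibroblast-like, pericyte-like, endothelial-like and macrophage-like cells. At an unadjusted p under 0.05 there were 0, 1, 3, 0 and 2 in the same order, beside 1.34%, 3.11%, 2.31%, 3.71% and 5.21% of all genes. Group values did not overlap for 2, 1, 5, 0 and 4, beside 2.35%, 4.82%, 5.22%, 4.61% and 5.22% of all genes. Ctsk in macrophage-like cells was at 129, 135 and 87.0 CPM in controls and at 68.6, 2.36, 67.6 and 8.96 CPM in irradiated tumors. All 4 irradiated values were below the controls (5.22% of all genes had no overlap), with a log2 fold change of -1.70 ± 0.92 and an adjusted p of 0.824 in edgeR. Mmp9 followed at 48.4, 40.4 and 40.1 against 23.2, 0.732, 38.4 and 1.88 CPM (-1.47 ± 1.00), also without overlap. Within technical sets 1 and 2 the log2 difference was -0.65 and -3.30 for Ctsk and -0.77 and -3.09 for Mmp9. In tumor-like cells the largest changes were in Adamts3 (0.83 ± 0.55), a procollagen N-proteinase, and Ctsk (-0.69 ± 0.32). They were Tll1 (1.40 ± 0.99) and Mmp13 (1.30 ± 0.89) in fibroblast-like, the lysyl oxidase Loxl1 (1.22 ± 0.57) and the gelatinase Mmp2 (1.14 ± 0.66) in pericyte-like, and the prolyl hydroxylase P3h2 (1.12 ± 0.62) and Mmp2 (-0.86 ± 0.46) in endothelial-like cells.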

How the data were processed

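Single-cell RNA libraries of 7 tumors (10x Genomics 3′ assay, papain dissociation, 10000 cells loaded) were analysed. The authors deposited UMI counts by gene and by called cell, with no normalization. Cell Ranger 8.0.0 is named in the headers of the files, Cell Ranger, Seurat 4.4 and mm10 in the submitters' processing notes, and a lower release of Cell Ranger in the methods of the study. Groups were taken from the sample labels. A marker gene and part of the genotype of the line are not reported here. Where nothing in them gives separate experiments, p-values measure the spread between these tumors only.

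Cells were gated by marker counts (at least 6 of the macrophage-like markers, 5 of the endothelial-like or pericyte-like, 4 of the T/NK-like or tumor-like, and 3 core fibroblast-like markers with at least 2 Xist UMIs), and cells that met a second list were left ungated. The pericyte-like gate also required an Xist UMI and at least 3 of 7 core pericyte-like markers, among them Rgs5. The core fibroblast-like markers were set after seeing that tumor-like cells carried Dcn, Lum and Pdgfra. No cells were removed, and doublets were treated only by conflicting markers, since Scrublet called 2 and 4 cells in irradiated 1 and 3. The members and lists were chosen with earlier results of these data known.

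Counts were summed per tumor and class and tested with edgeR 4.0.16 in R 4.3.3 (filterByExpr, TMM, robust quasi-likelihood test, two-sided, Benjamini-Hochberg over all genes tested, threshold 0.05), per class between groups, and between classes in 1 fit with class and tumor as terms. The fits were tested on simulated data. Alternatives were DESeq2 1.42.0, its size factors in edgeR, all genes with a UMI, leaving out each tumor, a replicate block, the technical set as a term, a stricter gate, a cell filter at 3 median absolute deviations and removal of Scrublet calls. Intervals (95%, exact) and the floor of 3 UMIs cover counting error only. Tables were handled in Python 3.11.15 with scanpy 1.11.5.

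Named genes were the 3 highest members per class, members past the threshold between groups, the 2 largest changes in each direction between groups at 10 CPM or more, the 3 largest calls in each direction between classes, and their partner chains. Of the collagen handling list, the 2 largest changes per class were named.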

Additional observations from a re-analysis of the deposited data

Results flagged for a closer look

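Among 38 sets of values of the 4 irradiated tumors that were examined, 5 held a tumor that lay far from the other 3 (gap over range above Dixon's limit at 95%), and chance marks about 1 in 20. Irradiated 2 had the highest collagen share of UMIs in tumor-like cells (2.16%), while the other irradiated tumors were at 1.73%, 1.77% and 1.74%. The same tumor had the highest Col1a1 in tumor-like cells (6532 CPM, against 3901 to 4329 CPM) and the lowest collagen share in endothelial-like cells (0.463%, against 0.597% to 0.617%), a class with 28 cells in that library. Col4a1 in pericyte-like cells was highest in irradiated 1 (2814 CPM, against 1272 to 1429 CPM). Col15a1 in fibroblast-like cells was highest in irradiated 4 (1012 CPM, against 119 to 259 CPM), where the class held 21 cells.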

How the results depend on the processing

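Of the values that answer a comparison, 200 alternative results kept their direction and size and 8 moved. DESeq2 called 1 collagen between groups in tumor-like cells (Col28a1), and with every gene that had at least 1 UMI edgeR called 1 in pericyte-like cells (Col14a1, 34 UMIs in 3 libraries, adjusted p 0.00282, beside 0.0824% of all genes) and 1 in endothelial-like cells (Col8a1, 100 UMIs, adjusted p 0.0275, beside 0.352%). As a mean over cells, the collagen share was 2.10% in tumor-like cells of irradiated tumors and 0.962% and 0.974% in pericyte-like cells of control and irradiated tumors. Less the T/NK-like share of each library, the macrophage-like share was -0.00386% in control and 0.00561% in irradiated tumors. Among single genes 672 results held, 17 class calls were lost (7 for Col9a2, 6 for Col15a1 and 4 for Col13a1) and 9 reversed. Those that reversed between groups, none of them a call, were Col15a1 (0.51) and Col12a1 (-0.014) in pericyte-like cells with the technical set as a term, and Col5a1 there with the replicate block (-0.13) and with the cell filter (-0.12). When each tumor was left out in turn, Col11a1 in fibroblast-like cells ran from -1.76 to 0.30, Col15a1 and Col5a1 in pericyte-like cells from -1.68 to 0.019 and from -0.083 to 0.46, and Col3a1 and Col13a1 in endothelial-like cells from -1.01 to 0.34 and from -0.0044 to 1.22. The tumors whose removal reversed them were control 2, control 3, irradiated 4, control 1 and irradiated 3 in this order. The cause was not tested.

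The labels share replicate numbers between groups but do not pair the tumors, and the deviations of same-numbered tumors correlated at -0.65, -0.19 and 0.23. With the replicate block 0 collagens passed in each of the 5 classes. Pericyte-like and fibroblast-like sums rest on 11 to 77 cells per tumor, which limits what could be detected there.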
